A study of Mus musculus with 3 samples.

Results

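Mertk, Axl, Gas6, Pros1, Elmo1, Sirpa, Cd47 and Rab7 are genes of apoptotic cell clearance, chosen by name from among the 27998 genes counted in single cells of the fetal mouse brain. All 8 were found, each under 1 gene identifier. They were followed through microglia, border macrophages, monocytes and neurons in each of the 3 libraries. These are all the members; none was dropped for a low level, although Mertk, Axl and Pros1 had too few counts in neurons to be compared between libraries.

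Cells that die display phosphatidylserine on their outer membrane leaflet. Gas6 and protein S, the product of Pros1, are vitamin K-dependent bridging proteins that bind this lipid and engage the TAM receptor tyrosine kinases, named after Tyro3, Axl and Mertk. Protein S activates Mertk and Tyro3, and Gas6 activates all TAM receptors, Axl with the highest affinity. In the adult mouse brain, microglia express Mertk and Axl and use them to clear dead cells, and Axl is an interferon-induced gene of inflamed myeloid cells. Downstream, Elmo1 works with Dock180-family proteins as an exchange factor for Rac, which drives the actin cup, and Rab7 is the small GTPase that marks late phagosomes and brings them to lysosomes. Cd47 on a target cell binds Sirpa on the phagocyte and holds engulfment back, the so-called do not eat me signal.

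The libraries held CD11b+ cells, an integrin-marked fraction rich in myeloid cells, taken with magnetic beads from mouse fetal brains at E18.5. They came from the Gzmb-cko poly(I:C) group (genotype Ncr1-cre;gzmbf/f), the Ncr1-cre poly(I:C) group and the Ncr1-cre saline group of pregnant mice. Every group carried Ncr1-cre, which acts in natural killer cells and some other innate lymphocytes. Poly(I:C), a double-stranded RNA analog, stands in for a virus, and granzyme B, the product of Gzmb, is a cytotoxic protease of those cells. Each group had 1 library, called a sample below, with the number of pooled fetuses, the poly(I:C) dose and the day of injection not given in the sources used here. Nor is it given whether dam or fetus carried the genotype. Differences between libraries therefore have no replicate check, and litter, pooling and treatment cannot be told apart.

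The 3 libraries held 13820 to 15306 barcodes and 85442198 to 105574073 unique molecular identifiers (UMIs, tags that count single RNA molecules). After filters 12821, 10478 and 11761 cells stayed in the Gzmb-cko poly(I:C), Ncr1-cre poly(I:C) and Ncr1-cre saline libraries. Gzmb itself was near absent from this sort: 1 cell of the Gzmb-cko poly(I:C) sample, 6 of the Ncr1-cre poly(I:C) sample and 4 of the Ncr1-cre saline sample had a Gzmb UMI, too few to check the deletion. Pairs of libraries shared 63 to 71 barcodes. The saline sample stood apart in having no barcode under 3133 UMIs, against 500 in both others, and in its hemoglobin, which made up 9.58% of microglial UMIs against 2.62% in the Gzmb-cko poly(I:C) sample and 5.57% in the Ncr1-cre poly(I:C) sample. Microglia with Xist and no Y-linked UMI made up 32.3% of all in the Gzmb-cko poly(I:C) sample, 47.7% in the Ncr1-cre poly(I:C) sample and 41.3% in the Ncr1-cre saline sample, so the sex mix differed too.

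Microglia were cells with a P2ry12 UMI and none of Mrc1, numbering 5075, 4266 and 5096 in the Gzmb-cko poly(I:C), Ncr1-cre poly(I:C) and Ncr1-cre saline libraries. Border macrophages, which line the meninges, vessels and choroid plexus, had Mrc1 and Pf4 and numbered 1712, 657 and 1032 in those libraries. Monocytes had Ccr2 and Ly6c2 and numbered 314, 390 and 454, and neurons had Stmn2 and Dcx and numbered 108, 304 and 103. Markers that the gates did not use went with the labels: Tmem119 was detected in 65.6 to 69% of microglia, Stab1 in 89.6 to 93.4% of border macrophages, Plac8 in 98.2 to 99.4% of monocytes and Tubb3 in 95.1 to 96.7% of neurons. The border gate was mixed: 81.8%, 75.6% and 76.9% of its cells in the Gzmb-cko poly(I:C), Ncr1-cre poly(I:C) and Ncr1-cre saline libraries also held a P2ry12 UMI. The microglial genes Tmem119 and Siglech were found in that gate too, as given below. Neurons carry no CD11b, and their sums carried macrophage RNA, with C1qa, C1qb, C1qc, Csf1r and Cx3cr1 at a median of 9.14%, 3.59% and 21.6% of their microglial level in those 3 libraries. In monocytes the same 5 genes stood at 12.9%, 5.95% and 20.4% of the microglial level.

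Across cell classes the receptors parted ways: Mertk was far lower in monocytes than in microglia, and Axl was not. Levels are given in CPM, the UMIs of a gene per 1000000 UMIs of that class in that library. Mertk had 106, 111 and 109 CPM in border macrophages of the Gzmb-cko poly(I:C), Ncr1-cre poly(I:C) and Ncr1-cre saline libraries, against 139, 152 and 135 CPM in microglia of the same 3 libraries. It had 23.5, 13.7 and 23.1 CPM in their monocytes and 20.3, 2.46 and 30.9 CPM in their neurons. The order microglia, border macrophages, then monocytes and neurons held in every library without overlap between classes, save that monocytes and neurons did not keep one order. In the edgeR fit of all 12 sums, with library as a block, Mertk was lower in monocytes than in microglia by a log2 fold of -2.58 (SE 0.290, adjusted p = 2.61e-05). Its border macrophage difference did not pass (log2 fold -0.39, SE 0.218, edgeR adjusted p = 0.33).

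Axl had 36.9, 54.5 and 46.7 CPM in border macrophages of the Gzmb-cko poly(I:C), Ncr1-cre poly(I:C) and Ncr1-cre saline libraries and 55.8, 32.2 and 40.8 CPM in their monocytes, against 24.95, 27.5 and 26.8 CPM in their microglia. Every border macrophage and monocyte value lay above every microglial one, and the values of border macrophages and monocytes overlapped. The edgeR log2 fold was 0.78 (SE 0.186, adjusted p = 0.022) for border macrophages over microglia and 0.95 (SE 0.228, adjusted p = 0.0047) for monocytes over microglia, both past the p and under the 2-fold mark that a call also needed. The border macrophage difference of Axl did not pass without the Gzmb-cko poly(I:C) sample (edgeR adjusted p = 0.0736), without the Ncr1-cre saline sample (edgeR adjusted p = 0.111), without the library block (edgeR adjusted p = 0.0871) or by DESeq2 (adjusted p = 0.0771). Axl was listed with 4, 0 and 3 UMIs in the neurons of the 3 libraries. The 0 UMIs in the neurons of the Ncr1-cre poly(I:C) sample allow up to 1.84 CPM, a limit for counting error only. Tyro3, the remaining TAM receptor, had 3, 7 and 18 UMIs in all microglia of the Gzmb-cko poly(I:C), Ncr1-cre poly(I:C) and Ncr1-cre saline libraries, or 0.0904, 0.285 and 0.610 CPM, and 5.79, 8.61 and 1.82 CPM in their neurons.

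**Figure D1:**
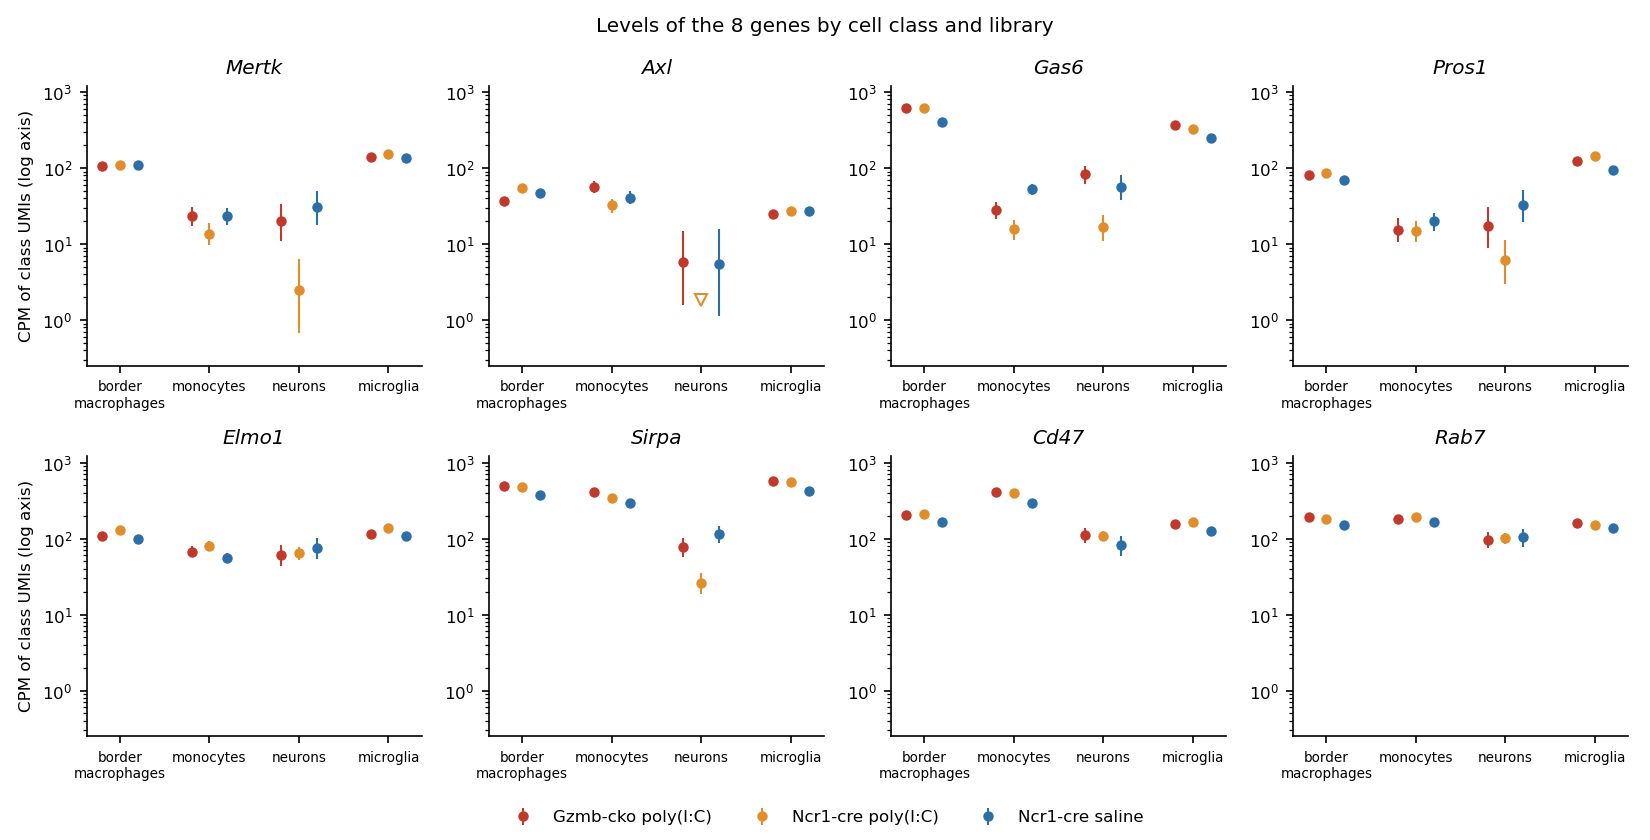
Level of each of the 8 genes (CPM, log axis) in border macrophages, monocytes, neurons and microglia; points are single libraries, bars 95% Poisson counting intervals, and the open triangle is the 3-count limit for Axl at 0 UMIs in neurons of the Ncr1-cre poly(I:C) sample. Mertk, Gas6 and Pros1 sit far lower in monocytes and neurons than in both macrophage classes, whereas Cd47 is highest in monocytes, at 293 to 415 CPM, and Axl lies at 32.2 to 55.8 CPM in monocytes and 24.95 to 27.5 CPM in microglia.

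Both ligands were highest in the macrophage classes. Gas6 had 616, 625 and 402 CPM in border macrophages of the Gzmb-cko poly(I:C), Ncr1-cre poly(I:C) and Ncr1-cre saline libraries, against 369, 325 and 247 CPM in microglia of the same libraries. Monocytes held 27.7, 15.6 and 52.2 CPM of Gas6 there, and the log2 fold of monocytes over microglia was -3.05 (SE 0.445, edgeR adjusted p = 0.000173). Each library had more Gas6 in border macrophages than in its own microglia, although the fold did not pass (log2 0.81, SE 0.377, edgeR adjusted p = 0.23). Pros1 ran the other way, with 81.5, 85.7 and 69.1 CPM in border macrophages against 124, 144 and 95.4 CPM in microglia of these libraries, and again did not pass (log2 fold -0.62, SE 0.190, edgeR adjusted p = 0.068). Against microglia, Pros1 was lower in monocytes by a log2 fold of -2.57 (SE 0.264, edgeR adjusted p = 1.3e-05). The Gas6 level of monocytes amounted to 7.5%, 4.79% and 21.1% of the microglial level in the Gzmb-cko poly(I:C), Ncr1-cre poly(I:C) and Ncr1-cre saline libraries, beside the 12.9%, 5.95% and 20.4% of the 5 macrophage genes. With monocytes that held P2ry12 or Mrc1 UMIs left out, the log2 fold of Gas6 in monocytes was -4.49 (SE 0.222, edgeR adjusted p = 5.29e-09), further below 0 than the -3.05 of all monocytes. Csf1r, one of the 5 genes, still stood at 24.9%, 20.1% and 26.7% of its microglial level in the monocytes that stayed. Where the Gas6 UMIs of monocytes come from was not tested.

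Elmo1 and Rab7 differed between the phagocytes by less than 2-fold. Elmo1 had 106, 128 and 99.7 CPM in border macrophages of the Gzmb-cko poly(I:C), Ncr1-cre poly(I:C) and Ncr1-cre saline libraries, 67.1, 80.6 and 55.9 CPM in monocytes, and 116, 136 and 106 CPM in microglia. The 2 macrophage classes overlapped, and monocytes were below both (log2 fold of monocytes over microglia -0.55, SE 0.101, edgeR adjusted p = 0.000792, under 2-fold). Neurons held 60.8, 64.6 and 74.5 CPM of Elmo1, a log2 fold of -1.23 against microglia (SE 0.120, edgeR adjusted p = 5.08e-06). Rab7 had 190, 180 and 151 CPM in border macrophages, 182, 194 and 166 CPM in monocytes and 97.0, 100.2 and 104 CPM in neurons, against 161, 149 and 136 CPM in microglia of the same libraries. Monocytes were above microglia in Rab7 by a log2 fold of 0.55 (SE 0.0873, edgeR adjusted p = 0.000321) and neurons below by -0.92 (SE 0.0996, edgeR adjusted p = 1.09e-05), both under 2-fold.

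The inhibitory pair split between classes. Cd47, the ligand, was a monocyte-high gene, with 415, 393 and 293 CPM in monocytes of the Gzmb-cko poly(I:C), Ncr1-cre poly(I:C) and Ncr1-cre saline libraries, against 154, 167 and 126 CPM in their microglia. Border macrophages held 206, 208 and 164 CPM of it and neurons 110, 107 and 81.7 CPM. Within each library the order was monocytes, border macrophages, microglia, neurons. The log2 fold of Cd47 was 1.56 in monocytes over microglia (SE 0.0894, edgeR adjusted p = 2.24e-07) and -1.19 in border macrophages over monocytes (SE 0.0891, edgeR adjusted p = 2.18e-06). In border macrophages over microglia it was 0.37 (SE 0.0871, edgeR adjusted p = 0.020), past the p and under 2-fold, and it did not pass without any 1 of the 3 libraries (edgeR adjusted p 0.0747 to 0.413) or without the library block (edgeR adjusted p = 0.219). Sirpa, the receptor, had 485, 470 and 373 CPM in border macrophages, 403, 343 and 297 CPM in monocytes and 76.7, 25.8 and 114 CPM in neurons, against 568, 558 and 428 CPM in microglia of the same libraries. Its folds between the 3 phagocyte classes did not pass (edgeR adjusted p 0.419 to 0.837), and its log2 fold in neurons over microglia was -3.34 (SE 0.372, edgeR adjusted p = 1.36e-05).

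Called at an edgeR adjusted p under 0.05 and at least 2-fold, 4 of the 8 genes differed in monocytes over microglia, Mertk, Gas6 and Pros1 lower and Cd47 higher, where 25.9% of the 12414 genes tested did so. In neurons over microglia 6 of 8 were called, all lower, Mertk, Axl, Gas6, Pros1, Elmo1 and Sirpa, beside a background of 44.8%. In border macrophages over monocytes 4 of 8 were called, Mertk, Gas6 and Pros1 higher and Cd47 lower, beside 24.2%. In border macrophages over microglia none of the 8 was called, where 3.5% of genes were; 2 of 8, Axl and Cd47, passed the edgeR adjusted p alone, as 10.7% of genes did. At an unadjusted p under 0.05 there were 4, Pros1 and Rab7 besides these, and DESeq2 with library as a block called none at 2-fold either. The median log2 fold of all genes was -0.11 in the fit of monocytes over microglia and -0.10 in that of neurons, and 0.01 for border macrophages over microglia. Plain CPM put those medians at -0.25 to -0.20 for monocytes and 0.31 to 0.38 for neurons. Read against either median, no call of a member changed direction.

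**Figure D2:**
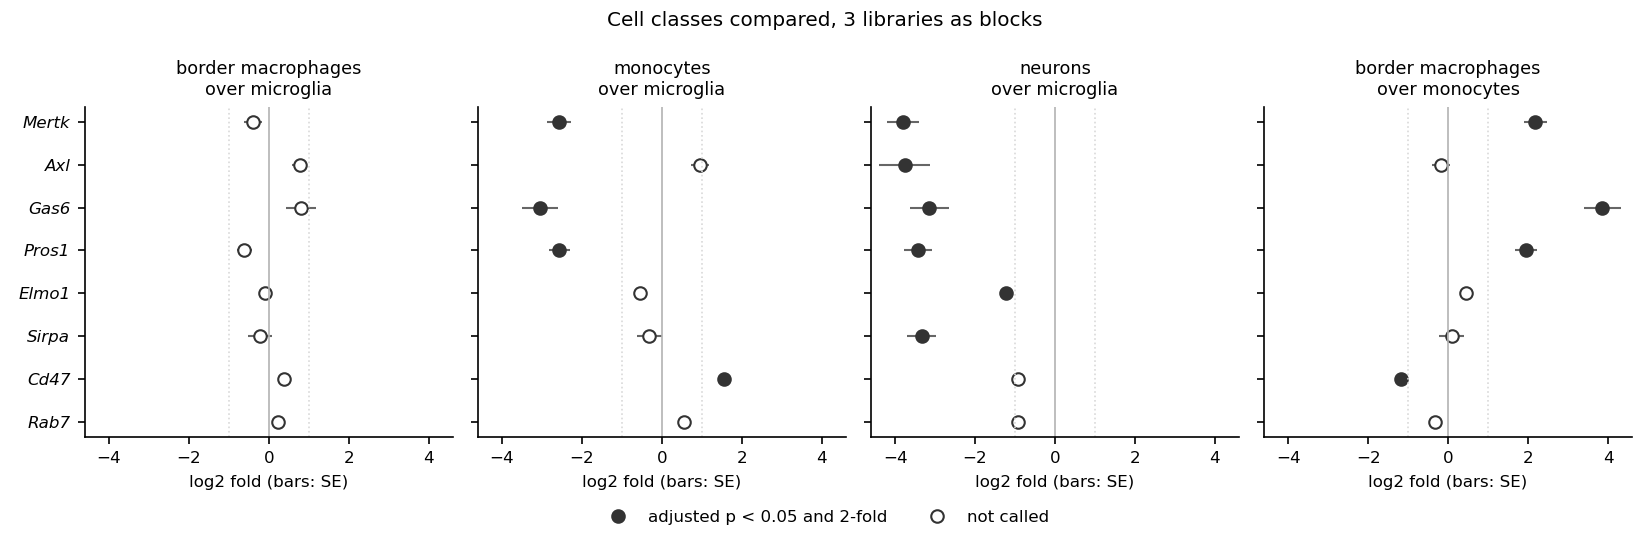
Log2 folds of the 8 genes between cell classes from the edgeR fit (points, bars are standard errors; filled where the adjusted p was under 0.05 and the fold at least 2). Mertk, Gas6 and Pros1 lie together at -3.05 to -2.57 in monocytes over microglia and at 1.96 to 3.86 in border macrophages over monocytes, while Cd47 lies on the other side of 0 in both.

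Border macrophages without P2ry12 UMIs were set apart because most cells of that gate carried them, a split made after seeing the data. Cells without P2ry12 numbered 311, 160 and 238 in the Gzmb-cko poly(I:C), Ncr1-cre poly(I:C) and Ncr1-cre saline libraries, against 1401, 497 and 794 with it, and they were shallower, with means of 7496, 7269 and 7047 UMIs against 10699, 8767 and 8371. Lyve1, a border macrophage receptor for hyaluronan, was 2.03-fold, 1.53-fold and 1.60-fold higher in them, Tmem119 stood at 0.153, 0.165 and 0.296 of its level, and Ccr2 was 2.67-fold, 2.3-fold and 3.63-fold higher. Border macrophages with P2ry12 had 143, 177 and 157 CPM of Tmem119, against 300, 343 and 255 CPM in microglia. Their Siglech was at 312, 297 and 335 CPM, against 544, 504 and 509 CPM in microglia. Mertk had 80.6, 62.8 and 87.1 CPM in border macrophages without P2ry12, 110, 123 and 114 CPM in those with it, and 139, 152 and 135 CPM in microglia. Pros1 had 47.6, 46.4 and 57.2 CPM without P2ry12, 86.8, 96.2 and 72.1 CPM with it, and 124, 144 and 95.4 CPM in microglia. Both genes were lowest in the first set and highest in microglia in every library, and Sirpa did so as well, with 377, 369 and 326 CPM, then 502, 498 and 385, then 568, 558 and 428. For Gas6 the steps went down, with 711, 661 and 418 CPM without P2ry12, then 602, 615 and 398 with it, then 369, 325 and 247 in microglia. The split uses a microglial gene, so genes that vary with P2ry12 differ in it by construction.

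With the border cells that held P2ry12 left out of the fit, all 8 genes passed an edgeR adjusted p of 0.05 in border macrophages over microglia, where 20.6% of genes did. Pros1 then had a log2 fold of -1.19 (edgeR adjusted p = 0.000588) and was called lower, and Mertk had -0.83 (edgeR adjusted p = 0.00136). Sirpa and Elmo1 were lower too, at -0.47 and -0.57. On the higher side stood Gas6 at 0.97 (edgeR adjusted p = 0.000889), Axl at 0.87 (edgeR adjusted p = 0.00409), Cd47 at 0.59 and Rab7 at 0.37. That fit also left out monocytes and neurons with macrophage UMIs, and it called 602 genes higher and 358 lower at 2-fold, or 8.64%, beside 1 of the 8. It set cells chosen for lacking P2ry12 against microglia chosen for having it. Genes that vary with P2ry12 therefore differ in it by construction, and its p-values and the Pros1 call cannot be read apart from that choice. Whether the P2ry12 UMIs of the border gate come from the cells themselves, from free RNA or from unseen doublets was not tested.

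**Figure D3:**
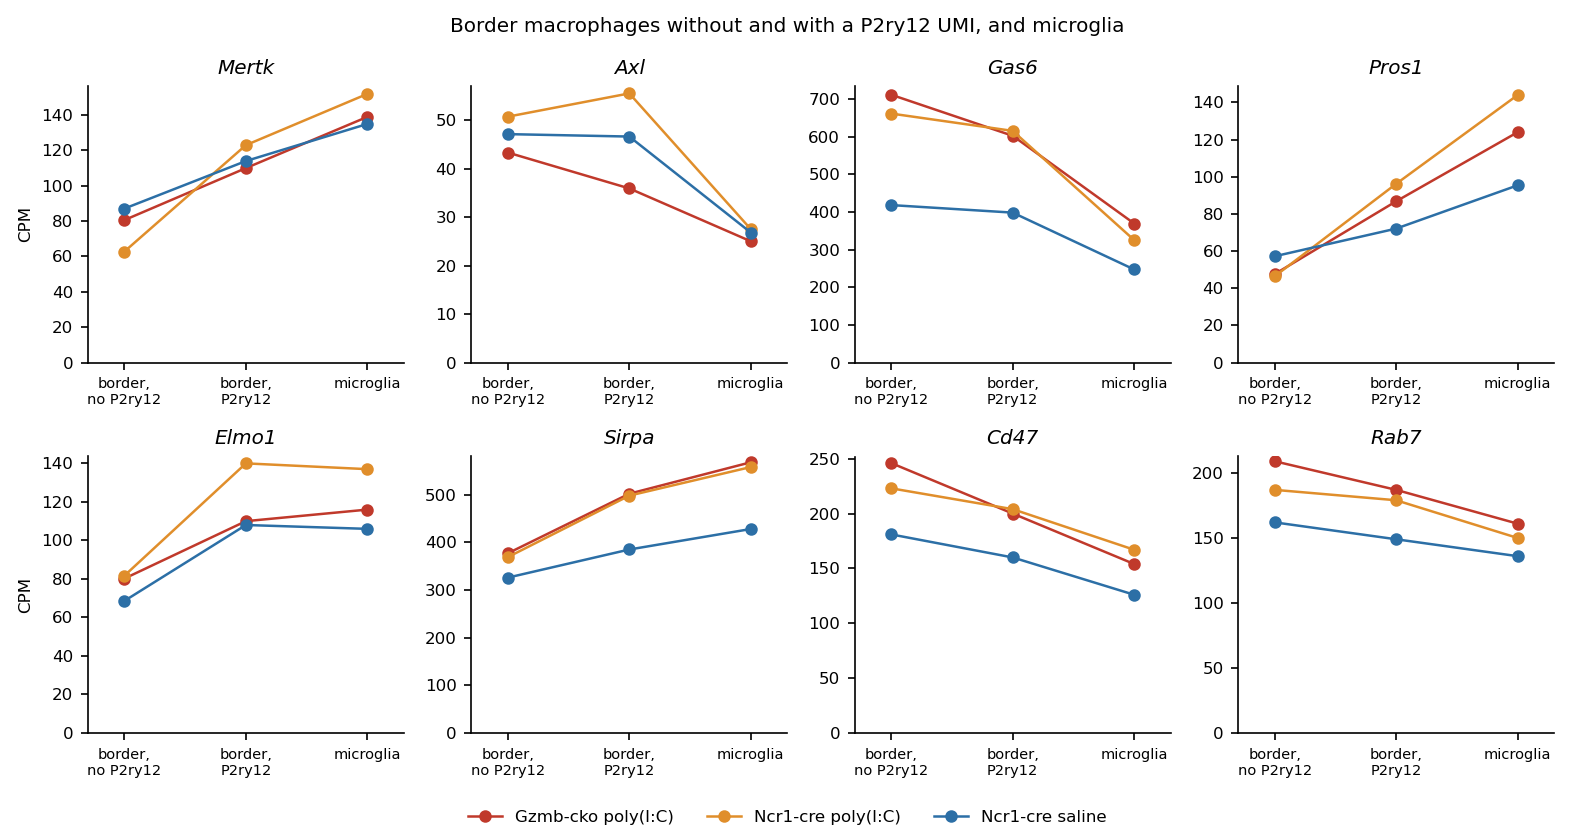
CPM of each gene in border macrophages without a P2ry12 UMI, border macrophages with one, and microglia; lines join the 3 sets of 1 library. Mertk, Pros1 and Sirpa climb toward microglia in all 3 libraries and Gas6 falls, Mertk lying at 62.8 to 87.1 CPM on the left and 135 to 152 CPM on the right.

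Microglia also differed among themselves, and Axl and Cd47 went with an interferon mark. Cells with UMIs of 2 or more of Ifit1, Ifit2, Ifit3, Rsad2, Isg15, Cxcl10, Oasl1 and Usp18, all interferon-induced genes, are called interferon-marked here. They numbered 166, 145 and 249, or 3.27%, 3.40% and 4.89% of microglia, in the Gzmb-cko poly(I:C), Ncr1-cre poly(I:C) and Ncr1-cre saline libraries, and were compared with microglia that had none of these genes. Marked cells were deeper, at medians of 6750, 6545 and 6224 UMIs against 5552, 4929 and 4540 in the cells with none. Axl had 50.8, 95.9 and 53.1 CPM in interferon-marked microglia of these libraries, against 22.8, 23.4 and 23.8 CPM in the cells with none. Cd47 had 227, 316 and 184 CPM in marked cells against 149, 161 and 120 CPM. Neither gene overlapped between the 2 sets of cells.

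A fit of these 6 sums with library as a block, chosen after seeing the data, gave Axl a log2 fold of 1.73 (SE 0.158, edgeR adjusted p = 2.35e-06), or 3.31-fold. Cd47 had 0.998 (SE 0.0873, edgeR adjusted p = 1.47e-06). Gas6 went the other way, with 266, 184 and 136 CPM in marked cells of the 3 libraries against 378, 340 and 265 CPM, a log2 fold of -0.51 (SE 0.0828, edgeR adjusted p = 0.000747). Sirpa was at the threshold (log2 fold -0.23, edgeR adjusted p = 0.0498) and did not pass with any 1 library left out (edgeR adjusted p 0.0609 to 0.476), and Mertk, Pros1, Elmo1 and Rab7 did not pass (adjusted p 0.0909 to 0.992). So 4 of the 8 genes passed, where 9.36% of the 12274 genes tested did, and 1, Axl, was also past 2-fold, as 4.2% were, the 8 genes of the list being left out. Marked cells had lower CPM of most genes, with an all-gene median of -0.18, -0.25 and -0.45 on the log2 scale in the Gzmb-cko poly(I:C), Ncr1-cre poly(I:C) and Ncr1-cre saline libraries, a shift the edgeR scaling takes out and plain CPM does not.

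Monocyte genes moved with the interferon mark. Plac8 was 40.1-fold, 36.4-fold and 11.1-fold higher in marked microglia of the Gzmb-cko poly(I:C), Ncr1-cre poly(I:C) and Ncr1-cre saline libraries, Ccr2 5.74-fold, 20.7-fold and 5.33-fold and Ly6c2 12.6-fold, 2.45-fold and 3.10-fold, while P2ry12 stood at 0.738, 0.554 and 0.612 of its level. The comparison was therefore repeated in microglia with Ccr2, Ly6c2 and Plac8 at 0 and UMIs of at least 2 of Tmem119, Sall1, Siglech and Fcrls, which left 107, 76 and 134 marked cells. There Axl had 47.8, 77.3 and 53.5 CPM in marked cells against 23.1, 24.5 and 24.9 CPM, a log2 fold of 1.55 (edgeR adjusted p = 1.79e-13). Cd47 had 202, 235 and 186 CPM against 149, 162 and 119 CPM, a log2 fold of 0.83 (edgeR adjusted p = 5.22e-12), while Gas6 no longer passed (-0.22, edgeR adjusted p = 0.181). Those 2 of 8 stand beside a background of 5.11%. In the fit of all microglia, leaving out each library in turn kept Axl between 1.46 and 1.93 and Cd47 between 0.90 and 1.13, past the p each time. Without the library block, Gas6 did not pass in that fit (edgeR adjusted p = 0.202).

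**Figure D4:**
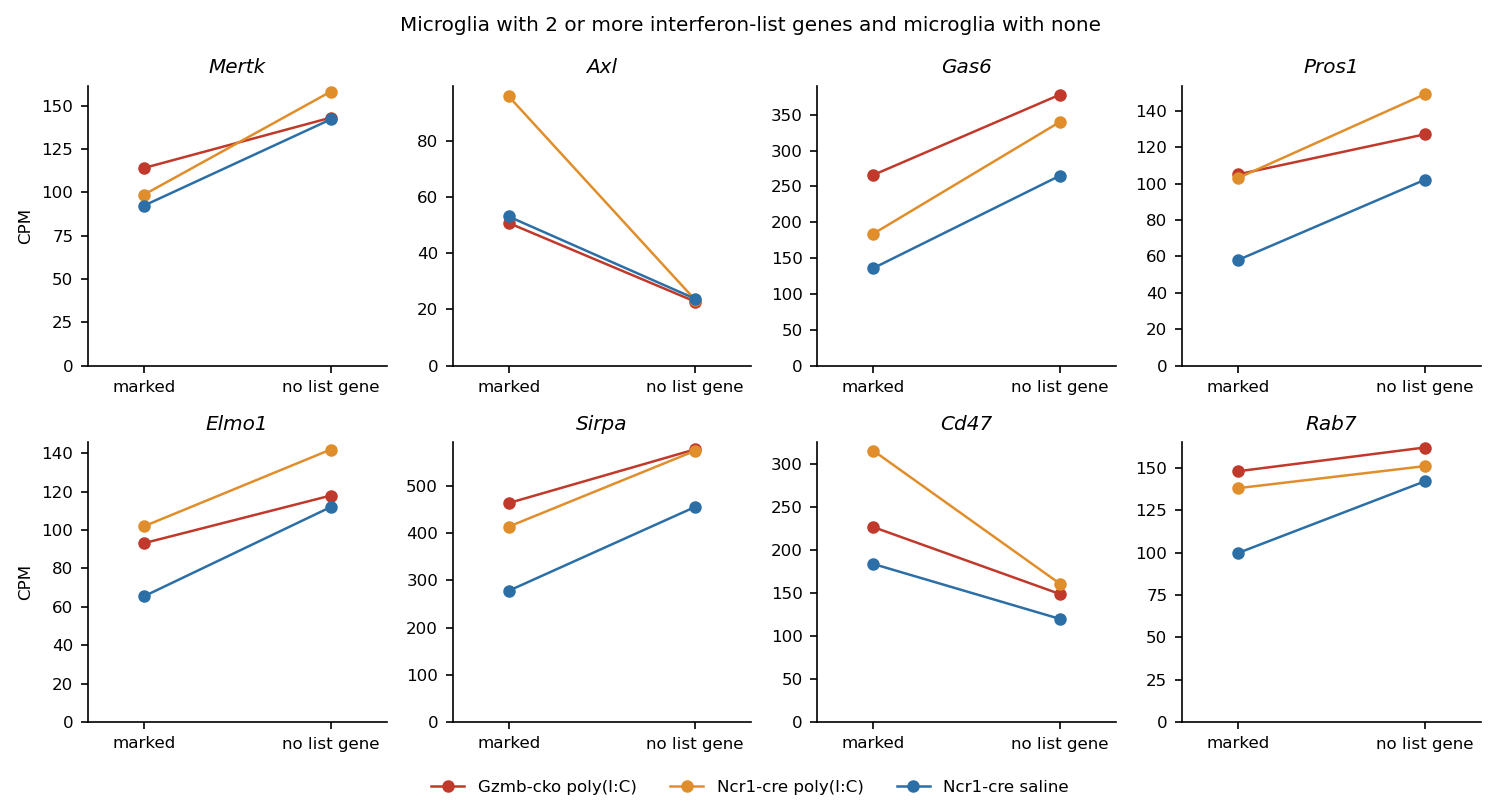
CPM of each gene in interferon-marked microglia (left) and in microglia with none of the 8 list genes (right), 1 line per library. Axl lies at 50.8 to 95.9 CPM in marked cells and 22.8 to 23.8 CPM in the others, Cd47 at 184 to 316 CPM and 120 to 161 CPM, while the Gas6 lines slope up to the right.

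Axl and Cd47 moved together there, so their promoters are shown beside that of Isg15, a classical interferon-stimulated gene. The 250 bases before the start of each gene were taken from RefSeq (GRCm38.p6), read along the gene's own strand. They lie at chr7:25788734-25788983 on the minus strand for Axl, chr16:49855404-49855653 on the plus strand for Cd47 and chr4:156200819-156201068 on the minus strand for Isg15. They were searched for GAAA, any 2 bases and GAAA again, the core of the interferon-stimulated response element, on both strands, overlapping matches included. Capitals mark the matches.
Axl promoter: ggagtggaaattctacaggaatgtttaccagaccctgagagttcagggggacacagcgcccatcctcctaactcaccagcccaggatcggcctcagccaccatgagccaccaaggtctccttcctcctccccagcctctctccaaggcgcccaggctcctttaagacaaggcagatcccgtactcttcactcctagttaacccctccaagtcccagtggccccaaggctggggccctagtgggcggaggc
Cd47 promoter: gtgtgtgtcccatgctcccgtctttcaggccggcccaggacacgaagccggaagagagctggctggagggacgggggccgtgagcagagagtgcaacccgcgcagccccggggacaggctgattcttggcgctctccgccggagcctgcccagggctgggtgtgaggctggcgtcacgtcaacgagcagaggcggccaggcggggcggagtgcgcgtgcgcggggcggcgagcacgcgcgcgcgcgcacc
Isg15 promoter: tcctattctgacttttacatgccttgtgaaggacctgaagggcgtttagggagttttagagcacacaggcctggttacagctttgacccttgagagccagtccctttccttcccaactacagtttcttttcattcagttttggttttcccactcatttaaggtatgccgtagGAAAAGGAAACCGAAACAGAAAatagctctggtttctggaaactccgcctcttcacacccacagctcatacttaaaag
Isg15 held 3 overlapping matches, 78, 72 and 66 bases before its start. The letters were not in the windows of Axl and Cd47, nor in those of the 5 further members with a window, Sirpa having none in the table. Of all 32851 windows 978, or 2.98%, held a match, as did 5 of the 7 interferon list genes with a window. The Cd47 window is rich in G and C, at 73.2%, the Axl one at 60.0% and the Isg15 one at 44.8%, where the median window has 52.4%. The RefSeq start of Cd47 lies inside the gene span that GENCODE gives (chr16, bases 49800533 to 49915010 of GRCm38), so another start is annotated upstream. Axl spans bases 25757273 to 25788705 of chromosome 7 on the minus strand and overlaps no other annotated gene.

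Axl and Cd47 were not the only genes to vary with a microglial state. In cells with UMIs of 2 or more of Spp1, Gpnmb, Lgals3, Lpl and Itgax, the genes of axon-tract microglia, Elmo1 stood at 0.656, 0.674 and 0.709 of its level in cells with none, in the Gzmb-cko poly(I:C), Ncr1-cre poly(I:C) and Ncr1-cre saline libraries. Rab7 ran opposite, 1.17-fold, 1.36-fold and 1.26-fold higher, and Gas6 was 1.29-fold, 1.23-fold and 1.15-fold higher. All 3 genes thus kept one direction in every library, as did Axl and Sirpa, both higher, and Mertk, lower. In cells with 2 or more cell cycle genes Mertk stood at 0.822, 0.756 and 0.740 and Sirpa at 0.864, 0.782 and 0.825 of the level in cells with none. Axl, Gas6, Pros1 and Cd47 were also lower in all 3 libraries, Gas6 at 0.941, 0.928 and 0.901. These are descriptions of single libraries with no test, in plain CPM and not set against an all-gene median. Both kinds of marked cells were deeper, at medians of 7677 and 6818 UMIs in the Gzmb-cko poly(I:C) sample against 4615 and 4829.

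At the level of single microglia, Mertk UMIs were found in 51.7%, 48.8% and 48.2% of cells of the Gzmb-cko poly(I:C), Ncr1-cre poly(I:C) and Ncr1-cre saline libraries and Axl UMIs in 12.5%, 11.7% and 12.5%. Sirpa was the most widely detected, in 89.0%, 84.0% and 85.0% of cells. Erythroid cells, set beside microglia as a comparison class, had Mertk UMIs in 53.3%, 40.2% and 37.1% and Axl UMIs in 8.89%, 7.97% and 11.3%, at medians of 16991, 15485 and 10382 UMIs against 5684, 5057 and 4720 in microglia. They are a poor zero, since 66.9 to 74.8% of them also held a P2ry12 UMI. Whether they express any of the 8 genes themselves was not tested. With each cell thinned to 2000 UMIs, Mertk was in 23.2%, 26.8% and 24.1% of microglia against 8.89%, 9.16% and 7.48% of erythroid cells. Thinned Axl was in 4.6%, 5.12% and 5.44% of microglia against 1.48%, 0.398% and 2.26%, with intervals that overlapped in 1 or more libraries, and the intervals of the other 7 genes lay above the erythroid ones in all 3. Thinning counted hemoglobin, which made up 54.7%, 60.9% and 54.3% of erythroid UMIs in these libraries, against 2.62%, 5.57% and 9.58% of microglial ones. Thinned erythroid cells thus kept fewer UMIs of all other genes, so lower shares in them are partly built in. In thinned microglia Axl was found in 4.65%, 5.76% and 5.45% of cells with a Mertk UMI and in 4.58%, 4.89% and 5.43% of cells without one.

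Microglia of the Gzmb-cko poly(I:C) sample had all 8 genes within 1.5-fold of their level in the Ncr1-cre poly(I:C) sample. The pair addresses poly(I:C) exposure in pregnancy with and without Gzmb in Ncr1-expressing cells. A Gzmb-cko saline sample was not analysed here, so an effect of genotype alone and a changed response to poly(I:C) cannot be told apart. Elmo1 had the lowest ratio, at 116 CPM in the Gzmb-cko poly(I:C) sample against 136 CPM in the Ncr1-cre poly(I:C) sample (0.848-fold, 95% counting interval 0.810 to 0.889), and Gas6 the highest, at 369 CPM against 325 CPM (1.14-fold, 1.11 to 1.17). A gene was called between libraries at 1.5-fold or more, given 10 CPM or more on the higher side and 50 UMIs over the pair. None of the 8 was called, where 2.65% of genes compared were, and with no replicate libraries no test was possible. In border macrophages none was called either, beside 6.2% of genes, and Axl came nearest, at 36.9 CPM in the Gzmb-cko poly(I:C) sample against 54.5 CPM in the Ncr1-cre poly(I:C) sample (0.677-fold, 0.589 to 0.779). With border cells that held P2ry12 UMIs left out, Axl had 43.3 CPM and 50.7 CPM in these samples, a log2 ratio of -0.23, while gates at 2 UMIs took it past 1.5-fold, to -0.66.

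Poly(I:C) against saline, both with Ncr1-cre, came with higher CPM of all 8 genes in microglia, and of most genes. Axl had the smallest ratio of the 8, 1.025, with a 95% counting interval of 0.9235 to 1.137. The all-gene median log2 ratio was 0.17 in microglia and 0.18 in border macrophages by CPM and within 0.01 of 0 after TMM scaling. Pros1 had 144 CPM in microglia of the Ncr1-cre poly(I:C) sample against 95.4 CPM in those of the Ncr1-cre saline sample (1.51-fold, 1.44 to 1.59), the only one of the 8 called, beside 6.53% of genes. Relative to the all-gene median its log2 ratio was 0.42, and by TMM its ratio was 1.35, which ends the call. Cd47, Gas6, Sirpa and Elmo1 had 0.24, 0.22, 0.21 and 0.19 above the median, Mertk and Rab7 lay within 0.04 of it, and Axl was 0.14 below. In border macrophages Gas6 was called, at 625 CPM in the Ncr1-cre poly(I:C) sample against 402 CPM in the Ncr1-cre saline sample (1.56-fold, 1.48 to 1.63), beside 12.8% of genes; by TMM its ratio was 1.36.

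The Gzmb-cko poly(I:C) sample differed from the Ncr1-cre saline sample in genotype and treatment at once. In microglia none of the 8 was called (3.93% of genes were), Gas6 coming nearest at 369 CPM against 247 CPM (1.49-fold, 1.45 to 1.54). In border macrophages Gas6 was called at 616 CPM in the Gzmb-cko poly(I:C) sample against 402 CPM in the Ncr1-cre saline sample (1.54-fold; 5.35% of genes called), and by TMM its ratio was 1.42. The 3 comparisons share libraries, and the Gas6 level of the saline sample enters both of its border macrophage ratios.

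**Figure D5:**
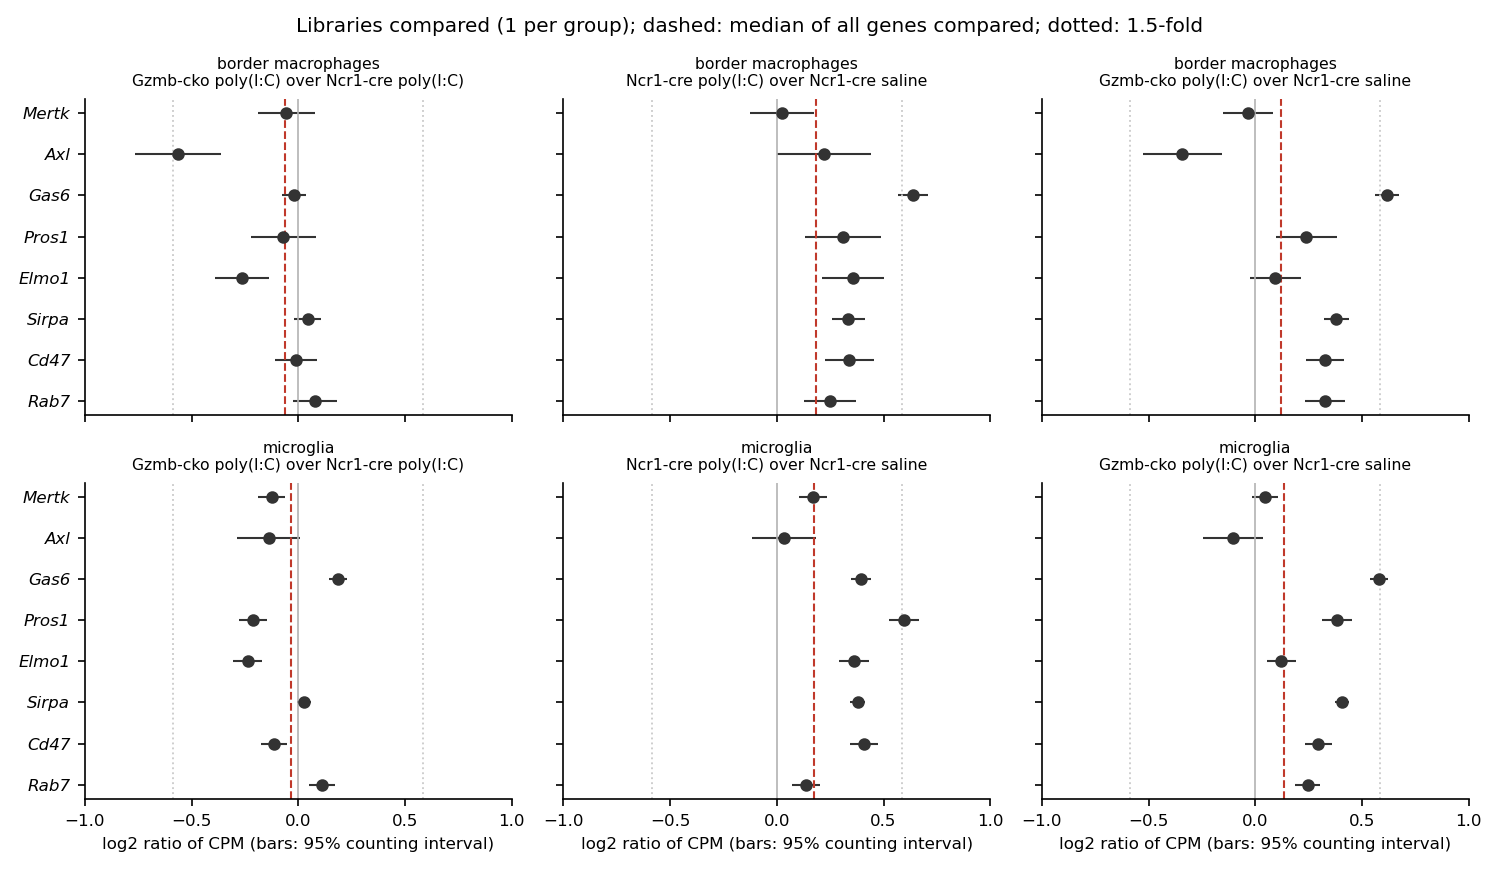
Log2 ratio of CPM between libraries for the 8 genes in border macrophages (top) and microglia (bottom), with 95% counting intervals; the dashed line is the median of all genes compared and dotted lines mark 1.5-fold. Of the 48 ratios, 3 lie past a dotted line, Pros1 in microglia of the Ncr1-cre poly(I:C) over the Ncr1-cre saline sample and Gas6 in border macrophages of both poly(I:C) libraries over the saline one.

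In monocytes and neurons the ratios were larger and rested on few UMIs. Gas6 in monocytes had 59 UMIs in the Gzmb-cko poly(I:C) sample, 43 in the Ncr1-cre poly(I:C) sample and 142 in the Ncr1-cre saline sample. Mertk, Axl and Gas6 were called higher in monocytes of the Gzmb-cko poly(I:C) over those of the Ncr1-cre poly(I:C) sample, at 1.71-fold, 1.74-fold and 1.78-fold (8.73% of genes called). Mertk at 0.593-fold and Gas6 at 0.298-fold were called lower in the Ncr1-cre poly(I:C) over the Ncr1-cre saline sample (17.9%), and Gas6 at 0.531-fold in the Gzmb-cko poly(I:C) over the Ncr1-cre saline sample (12.9%). The 5 macrophage genes stood at 12.9%, 5.95% and 20.4% of the microglial level in monocytes of the Gzmb-cko poly(I:C), Ncr1-cre poly(I:C) and Ncr1-cre saline libraries. On the same measure Gas6, at 7.5%, 4.79% and 21.1%, and Mertk, at 16.84%, 9.045% and 17.15%, shared that order. Mertk was nearly level between the Gzmb-cko poly(I:C) and Ncr1-cre saline libraries. Axl, at 223.8%, 117.1% and 152.2%, did not share the order. With monocytes that held P2ry12 or Mrc1 UMIs left out, Mertk had 17.5, 10.4 and 10.0 CPM there and Axl 55.9, 30.4 and 42.1 CPM. Both were then still called higher in the Gzmb-cko poly(I:C) over the Ncr1-cre poly(I:C) sample, and the Mertk log2 ratio of the Ncr1-cre poly(I:C) over the Ncr1-cre saline sample was 0.054. Gas6, with 23, 20 and 27 UMIs, was then too low to compare between the first pair. In neurons Gas6 and Sirpa were called, 4.97-fold and 2.97-fold higher in the Gzmb-cko poly(I:C) over the Ncr1-cre poly(I:C) sample (19.9% of genes called) and at 0.295-fold and 0.226-fold in the Ncr1-cre poly(I:C) over the Ncr1-cre saline sample (28.7%). No member was called in neurons of the Gzmb-cko poly(I:C) over the Ncr1-cre saline sample (19.6%). With neurons that held P2ry12, Mrc1 or Csf1r UMIs left out, Gas6 had 12, 15 and 5 UMIs in the 3 libraries, too few to compare. Ttr, a choroid plexus gene, also varied between the neurons as gated, with 5000, 2103 and 5332 CPM in the Gzmb-cko poly(I:C), Ncr1-cre poly(I:C) and Ncr1-cre saline libraries, and its part in these ratios was not tested.

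Of 18 further phosphatidylserine receptors and bridging proteins tested, 3 were higher in border macrophages than in microglia and none was lower: Timd4, a direct phosphatidylserine receptor, by 17.6-fold (edgeR adjusted p = 0.000534), the scavenger receptor Cd36 by 9.43-fold (edgeR adjusted p = 3.7e-06) and Stab1 by 4.24-fold (edgeR adjusted p = 0.00529). All genes called in that comparison made up 3.5%. Monocytes over microglia had 3 of the 18 higher and 7 lower, beside 25.9% of all genes called. The higher ones were Cd300lb at 25-fold, Anxa1 at 14.0-fold and Cd300lf at 9.09-fold, and the complement genes C1qa, C1qb and C1qc were among the lower, C1qa by 11.1-fold. The median log2 fold of those 18 was -0.80 in monocytes over microglia, where that of all genes was -0.11. Ggcx and Vkorc1, the carboxylase and the vitamin K reductase on whose work Gas6 and protein S depend, were 3.49-fold and 2.81-fold lower in monocytes than in microglia (edgeR adjusted p = 0.000527 and 3.68e-07), and Rhbdf2, a partner of the shedding protease Adam17, was 2.29-fold higher.

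Of 14 inhibitory genes, Cd47 among them, 7 were higher in monocytes than in microglia and none was lower, where 25.9% of all genes were called in one direction or the other. Their median log2 fold was 0.78, against -0.11 for all genes. Lilrb4a at 19.1-fold and Pirb at 13-fold, both inhibitory receptors, led the list that Cd47, at 2.95-fold, belongs to. Of 21 genes of the Elmo1 to Rac route, 7 were higher and 1 was lower in monocytes than in microglia, again beside 25.9% of all genes, among them Vav3 at 15.7-fold, Dock5 at 14.2-fold and Src, the lower one, at 6.46-fold. Vav3, a Rac exchange factor, was also 8.03-fold higher in border macrophages than in microglia (edgeR adjusted p = 1.62e-06). Of 29 phagosome genes tested, none was called in border macrophages over microglia (3.5% of all genes), while 2 were higher and 3 lower in monocytes over microglia (25.9% of all genes called), Plekhm1 at 2.66-fold higher and Rab34 and Rab20 at 3.78-fold and 3.44-fold lower. Of the 7 genes that expose phosphatidylserine, Atp11a and Panx1 were higher in monocytes, by 2.85-fold and 2.49-fold.

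Between libraries the lists held few calls in microglia, where 2.65% of all genes were called for the Gzmb-cko poly(I:C) over the Ncr1-cre poly(I:C) sample and 6.53% for the Ncr1-cre poly(I:C) over the Ncr1-cre saline sample. Anxa1 at 17.3 CPM in the Gzmb-cko poly(I:C) sample against 33.2 CPM in the Ncr1-cre poly(I:C) sample, and Cd24a at 21.5 CPM against 37.5 CPM, were the only ones called lower there, and Rab7b, a Rab7 relative of the lysosomal route, was called higher at 17.5 CPM against 10.0 CPM. In the Ncr1-cre poly(I:C) over the Ncr1-cre saline sample Rab20 was higher, at 37.0 CPM against 24.1 CPM, and Cd24a and Rab7b lower, Cd24a at 37.5 CPM against 67.5 CPM. Cd24a encodes an inhibitory surface protein that other leukocytes and neurons also express. The hemoglobin share of microglial UMIs had the same order as Cd24a, at 2.62%, 5.57% and 9.58% in the Gzmb-cko poly(I:C), Ncr1-cre poly(I:C) and Ncr1-cre saline libraries. A link between them was not tested. In border macrophages of the Gzmb-cko poly(I:C) over the Ncr1-cre poly(I:C) sample, Timd4 was higher at 11.3 CPM against 5.25 CPM and Mfge8, a bridging protein, was lower at 8.20 CPM against 13.95 CPM.

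The genes most like each member were sought over the 12 sums of class and library by Pearson's r of log2(CPM + 1), among 5146 genes. The 12 points share libraries and classes, so r describes the class pattern and carries no p. Mertk was most like Suclg2 (r = 0.994), Gna15 and Pdk1, and Axl most like Klf2 (r = 0.982), C5ar1 and Vamp8. Gas6 was most like Gatm (r = 0.996), Ltc4s and Timp2, and Pros1 most like St3gal6 (r = 0.992), Ctsl also being among the 3 most like. For Elmo1 they were Hadha (r = 0.983), Trim26 and Canx, for Sirpa Tmem63a (r = 0.995), Laptm5 and Unc93b1, for Cd47 Sema4a (r = 0.985), Bin3 and Arpc3, and for Rab7 2210016F16Rik (r = 0.978) and Hmox2.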

How the data were processed

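The authors deposited filtered count matrices of UMIs per gene and cell, 1 per library, made with Cell Ranger, version 3.0.1 per the submitters' processing notes and 5.0.0 per the file headers, on mm10. Members and gene lists were chosen with earlier results of these data known. Cells under 500 genes or over 10% mitochondrial UMIs were dropped, Scrublet doublets (2.61 to 4.66% of cells; expected rate 0.8% per 1000 cells) were removed, and cells in more than 1 marker gate, 126 to 249 per library, were left out. UMIs were summed per class and library.

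Classes were compared with edgeR 4.0.16 (R 4.3.3), a quasi-likelihood test with TMM scaling, filterByExpr and library as a block, adjusted by Benjamini-Hochberg over 12414 genes. The 12 sums share libraries and cell gates. The block takes up level differences between libraries, so p-values rest on how class differences vary over the 3 libraries. The script was tested on simulated data: for border macrophages over microglia with 200 of 12414 genes changed it recovered 53.1% at 2-fold and 100% at 4-fold. Recovery there needed the edgeR adjusted p under 0.05 alone, without the 2-fold mark. The simulated counts had the same dispersion for every gene and no library effect, so these percentages do not give the power in the real sums. Between libraries no test was possible. Ratios have 95% exact conditional binomial intervals, levels exact Poisson ones and shares exact binomial ones, all for counting error only, and a count of 0 was given a limit of 3 counts. Class totals ran from 550589 UMIs in neurons to 33181869 in microglia. Microglia had median UMIs of 4720 to 5684 a cell.

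Besides the 8 members, lists of 208 genes were used, 206 of which were found, and at most 3 genes per list and comparison were named, those with the largest change. Values of some genes are not reported here. Alternatives were stricter filters and gates, a UMI floor of 3133, doublets kept, one sex of cells, thinning to 2000 UMIs, other scalings, DESeq2 1.42.0, no library block and each library left out. Added after seeing the data were the fit of interferon-marked microglia and the leaving out of cells with microglial UMIs or over 5% hemoglobin. Gene positions come from GENCODE on GRCm38. No source used here says how strand was treated, and Mertk, Gas6 and Rab7 overlap counted genes on the other strand, so reads there may be shared.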

Additional observations from a re-analysis of the deposited data

How the results depend on the processing

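The 14 member and class contrasts called were also called, with the same direction, under each of the 14 alternatives run for classes. In border macrophages over microglia, 1 member was called with cells with microglial UMIs left out, against 0. Of the interferon-marked comparison's 4 members, 2 passed without the library block and 2 with monocyte genes at 0. Of 8 members, 1 had a share of microglia with a UMI whose 95% interval lay above that of erythroid cells in all 3 libraries, and 7 after thinning. Thinning counted hemoglobin UMIs, so erythroid cells kept fewer UMIs of other genes, and lower shares in them are partly built in.

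Between libraries, 5 pairs of member and class were called for Gzmb-cko poly(I:C) over Ncr1-cre poly(I:C). There were 3 under the strict filter, 3 without cycling cells, 1 with Xist cells only (Axl in border macrophages), 1 with Y gene cells only (Elmo1 in monocytes), 1 after thinning (Elmo1 in neurons), none of these 3 among the 5, 2 without cells with microglial UMIs and 2 at 2-fold. For Ncr1-cre poly(I:C) over Ncr1-cre saline, 6 were called, and 3 each after thinning, without cells with microglial UMIs and at 2-fold. For Gzmb-cko poly(I:C) over Ncr1-cre saline, 2 were called, and 4 each with cells in several gates kept, gates at 2 UMIs and Y gene cells only, 1 without mitochondrial, ribosomal and hemoglobin genes in the total, and 0 at 2-fold.

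Of called pairs, 4 reversed, and the cause was not tested. Ratios near 1 that were not called also changed sign, in microglia and border macrophages too. The log2 ratio of Gas6 in monocytes was -0.52 after thinning for Gzmb-cko poly(I:C) over Ncr1-cre poly(I:C), and 0.14 with doublets kept for Gzmb-cko poly(I:C) over Ncr1-cre saline. Mertk in monocytes was 0.054 without cells with microglial UMIs, and Gas6 in neurons 0.28 with Xist cells only, both for Ncr1-cre poly(I:C) over Ncr1-cre saline. No paired analysis was possible because each group had 1 library. Depth limited Mertk, Axl and Pros1 in neurons, with 0 to 18 UMIs per library.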

Other observations

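Hemoglobin-rich microglia, with over 20% hemoglobin UMIs, were compared with other microglia with hemoglobin taken out of the total. They numbered 110, 174 and 492 in the Gzmb-cko poly(I:C), Ncr1-cre poly(I:C) and Ncr1-cre saline samples, against 4944, 4058 and 4516 cells with up to 5%. Mertk had 151, 163 and 135 CPM in the hemoglobin-rich cells of the 3 samples, against 143, 161 and 151 CPM in the others. Sirpa had 611, 594 and 475 CPM against 582, 589 and 475 CPM. Axl was lower in each sample, with 10.8, 21 and 25.2 CPM against 26, 29.6 and 30.4 CPM, and its 95% counting interval lay below 1 in the Gzmb-cko poly(I:C) sample (ratio 0.414, 0.178 to 0.820). Pros1 was lower in each sample as well, with ratios of 0.894, 0.877 and 0.799, and in the Ncr1-cre saline sample the intervals of Pros1 (0.690 to 0.922), Rab7 (0.769 to 0.972) and Gas6 (0.843 to 0.997) lay below 1. The hemoglobin-rich cells were deeper, at medians of 14562, 13283 and 9075 UMIs, and no test was made between them.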
